A study of Homo sapiens with 12 samples.

Results

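The collagenase, gelatinase and membrane-type metalloproteinase genes MMP1, MMP8, MMP9, MMP14 and MMP19 and the inhibitor genes TIMP1, TIMP2 and TIMP3 were followed on 12 bead arrays of U937, a human cell line with monocytic features. All probes whose symbol in the platform annotation was one of these 8 names were taken: 8 of 24526 probes, covering 7 of the 8 genes (1 each, and 2 for TIMP2), and MMP19 had no named probe in the tables used here. The genes were chosen by their measured differences between the groups on these same arrays, so their differences are given as descriptions and not as tests. Of the 8 probes, 6 passed a detection filter that kept 13174 of all probes, and MMP14 and TIMP3 did not.

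The study compared control U937 cells with cells given, for 24 h, either EX527, which blocks the deacetylase SIRT1, or MC2494, which the series title calls a sirtuin inhibitor. There were 4 arrays in each of 3 groups. All groups are the same cell line with no engineered allele, the labels give no dose and no vehicle, and separate cultures are not stated. Intervals and adjusted p-values below therefore rest on array-to-array spread, which may be only technical.

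Matrix metalloproteinases are secreted or membrane-bound zinc proteases that are made as inactive precursors and become active when the propeptide is cleaved off. Collagenases such as MMP1 and MMP8 cut the intact triple helix of fibrillar collagen, gelatinases such as MMP9 digest the unfolded chains and basement membrane collagen, and TIMPs occupy the active site of the free enzymes. Cells of the monocyte lineage are a known source of MMP9 and TIMP1, and MMP8 is stored in neutrophil granules.

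The promoters of 2 members that differ in behaviour are shown first, MMP8, which lay on opposite sides of control under the compounds, and TIMP1, the brightly detected inhibitor with small differences. The windows are the 250 bases before the RefSeq start site on GRCh38.p14, 5′ to 3′ on the gene's strand, with MMP8 at chr11:102724955-102725204 on the minus strand and TIMP1 at chrX:47582186-47582435 on the plus strand, and motif matches are in capitals.
MMP8: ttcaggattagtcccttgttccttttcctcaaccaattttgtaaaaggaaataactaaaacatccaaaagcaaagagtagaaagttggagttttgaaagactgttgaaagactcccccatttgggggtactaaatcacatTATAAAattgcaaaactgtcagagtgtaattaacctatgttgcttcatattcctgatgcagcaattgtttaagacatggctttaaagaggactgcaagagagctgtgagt
TIMP1: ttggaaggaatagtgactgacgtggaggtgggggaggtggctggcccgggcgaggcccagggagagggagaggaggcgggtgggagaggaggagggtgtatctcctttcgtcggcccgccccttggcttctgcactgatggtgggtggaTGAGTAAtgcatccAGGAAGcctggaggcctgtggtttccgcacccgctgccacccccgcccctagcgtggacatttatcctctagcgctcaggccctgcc
The capitals in MMP8 are TATAAA at positions -110 to -105 from the start. The capitals in TIMP1 are TGAGTAA, a variant of the site bound by AP-1 factors, at -101 to -95 and AGGAAG, a core read by ETS factors, at -87 to -82. Both strands were searched, and the motifs as found do not overlap. TATAAA occurred in 10.7% of 35116 RefSeq promoters of the same length, TGAGTAA in 2.21% and AGGAAG in 28.7%. The AP-1 consensus TGANTCA, present in 6.57% of them, was not among the letters of these windows or of those of MMP14 and TIMP3. These were the 4 members of 8 with a promoter in the RefSeq table.

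Across the series, the control arrays had a mean raw intensity of 779.3 ± 14.5 (SD, n = 4), the EX527 arrays 736.2 ± 32.3 and the MC2494 arrays 662.8 ± 31.0, and 12231 to 13030 probes were detected per array. Signals were background corrected, quantile normalized between arrays and put on a log2 scale, and a probe counts as detected on an array where its deposited detection p is under 0.05. Of 10 monocytic marker genes, 9 had a probe and 8 were detected on all arrays (CD68, SPI1, CD36, LYZ, CSF1R, ITGAM, FCGR1A and CD14). Of the 8 fibroblast markers, 6 were detected on no array, among them COL1A1, COL1A2, COL3A1 and DCN, and 4 of 6 epithelial markers (CDH1, KRT8, KRT18, KRT19) were detected on none. The summed normalized intensity of the fibroblast list, on the linear scale, was 234 to 248 in control, 256 to 267 in EX527 and 208 to 217 in MC2494. That of the epithelial list was 161 to 187, 170 to 174 and 167 to 177. That of the monocytic list was 4960 to 5090 in control, 4530 to 4890 in EX527 and 4740 to 5190 in MC2494, so EX527 lay below control.

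MMP1, the interstitial collagenase, had deposited intensities of 484.9, 356.6, 339.8 and 364.4 on the control arrays. The EX527 arrays read 1136, 1117, 1221 and 966.5, and the MC2494 arrays 80.12, 88.66, 89.19 and 77.88. The 3 groups did not overlap, with EX527 highest, control in the middle and MC2494 at the edge of detection, where 1 of its 4 arrays missed the cutoff with a detection p of 0.057. On the normalized log2 scale the group means (± SD, n = 4) were 8.37 ± 0.23 in control, 9.99 ± 0.12 in EX527 and 5.20 ± 0.11 in MC2494.

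The MMP1 level under EX527 was 3.06-fold the control level, a log2 difference of 1.62 ± 0.10 (SE from limma, 95% interval 1.40 to 1.83). Under MC2494 it was 8.99-fold below control, a log2 difference of -3.17 ± 0.10 (-3.39 to -2.95). With the undetected array set at the lowest detected signal, that fold became 8.91. Its size rests on the treatment of background: the log2 difference was -2.37 with an offset of 50 and -2.15 with no background correction. Between the compounds the log2 difference was -4.78 ± 0.10. MMP1 thus lay above control with one compound and below it with the other, by more than the spread between arrays each time. The fibroblast marker sum took the same order of groups as MMP1. However, 6 of its 8 members were detected on no array and only 1 passed the detection filter. The sum thus includes background signal and does not show that fibroblasts were present, and its part in the MMP1 result was not tested. In bulk RNA, fewer cells making a transcript and less of it per cell cannot be told apart.

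MMP8, the neutrophil collagenase, was much nearer to background. Its intensities were 110.4, 104.8, 98.75 and 100.4 in control, 168.4, 172, 198.5 and 171.8 in EX527, and 56.01, 57.46, 51.78 and 58.41 in MC2494. The groups again did not overlap and stood in the same order as for MMP1. All 4 control and all 4 EX527 arrays detected MMP8, and no MC2494 array did, with detection p from 0.61 to 0.95.

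The normalized means (± SD, n = 4) of MMP8 were 5.71 ± 0.07 in control, 6.90 ± 0.11 in EX527 and 4.54 ± 0.05 in MC2494. EX527 was above control by 1.19 ± 0.06 on the log2 scale (SE, 95% interval 1.06 to 1.32), which is 2.29-fold. The MC2494 group has only a bound, taken per array as the higher of the probe's own signal and the lowest detected signal, so on this normalized scale MMP8 was at least 1.5-fold lower in MC2494 than in control and at least 3.42-fold lower than in EX527. Such a bound covers the undetected arrays on that scale and not the treatment of background, on which the size of these differences rests: the MC2494 difference from EX527 was -1.42 on the log2 scale with an offset of 50 and -1.56 with no background correction, both smaller than the bound of 1.77. With no background correction the EX527 difference from control was 0.72, and with an offset of 50 the MC2494 difference went from a fitted -1.17 to -0.59.

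MMP9, gelatinase B, showed a different order. Control intensities were 113.6, 128.6, 120.5 and 124.1, those of EX527 78.69, 80.43, 80.6 and 90.84, and those of MC2494 70.26, 74.09, 69.73 and 60.58. Every control array lay above every array of either compound, and EX527 lay above MC2494 by a narrow margin. MMP9 was detected on 4 control arrays, 1 EX527 array and no MC2494 array, so it passed the filter only through the group in which it was high.

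On the log2 scale MMP9 averaged (± SD, n = 4) 6.16 ± 0.19 in control, 5.06 ± 0.20 in EX527 and 4.79 ± 0.09 in MC2494. It was 2.14-fold lower in EX527 than in control by the fitted difference of -1.10 ± 0.11 (SE), or 1.91-fold with its undetected arrays set to the lowest detected signal. Under MC2494 it was at least 2.04-fold lower on this scale, a log2 bound of 1.03 that smaller values without background correction do not reach. The fitted difference between the compounds, -0.27 ± 0.11, came from values below or at the detection limit and has no fold. It went from adjusted p = 0.038 to 0.13 in limma without EX527 replicate 4, the array with the detected value, with a difference of -0.17. It also lost the threshold without any one MC2494 array, with adjusted p between 0.051 and 0.10. With no background correction MMP9 differed from control by -0.79 under MC2494 and by -0.59 under EX527.

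Beside MMP8 and MMP9, which neutrophil granules store, other granule genes were bright: CTSG, ELANE, AZU1, PRTN3 and CAMP were detected on all 12 arrays, while LTF, MPO and CEACAM8 were detected on none. The summed normalized intensity of these 8 genes, on the linear scale, was 59900 to 65800 in control, 54400 to 57100 in EX527 and 51100 to 53500 in MC2494. Its group order is that of MMP9, not that of MMP8, and its part in either result was not tested. The mean raw intensity over all probes had that order too, but before the normalization that these sums have been through.

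MMP14, the membrane-type metalloproteinase that activates the MMP2 precursor at the cell surface, was detected on no array. Its intensities were 73.76 to 87.58 in control, 70.54 to 84.39 in EX527 and 72.56 to 77.73 in MC2494, with detection p from 0.051 to 0.20. The groups overlapped throughout. In a fit without the detection filter the log2 difference from control was 0.00 for MC2494 (95% interval -0.16 to 0.16) and -0.01 for EX527 (-0.17 to 0.15), values that describe background signal.

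**Figure D1:**
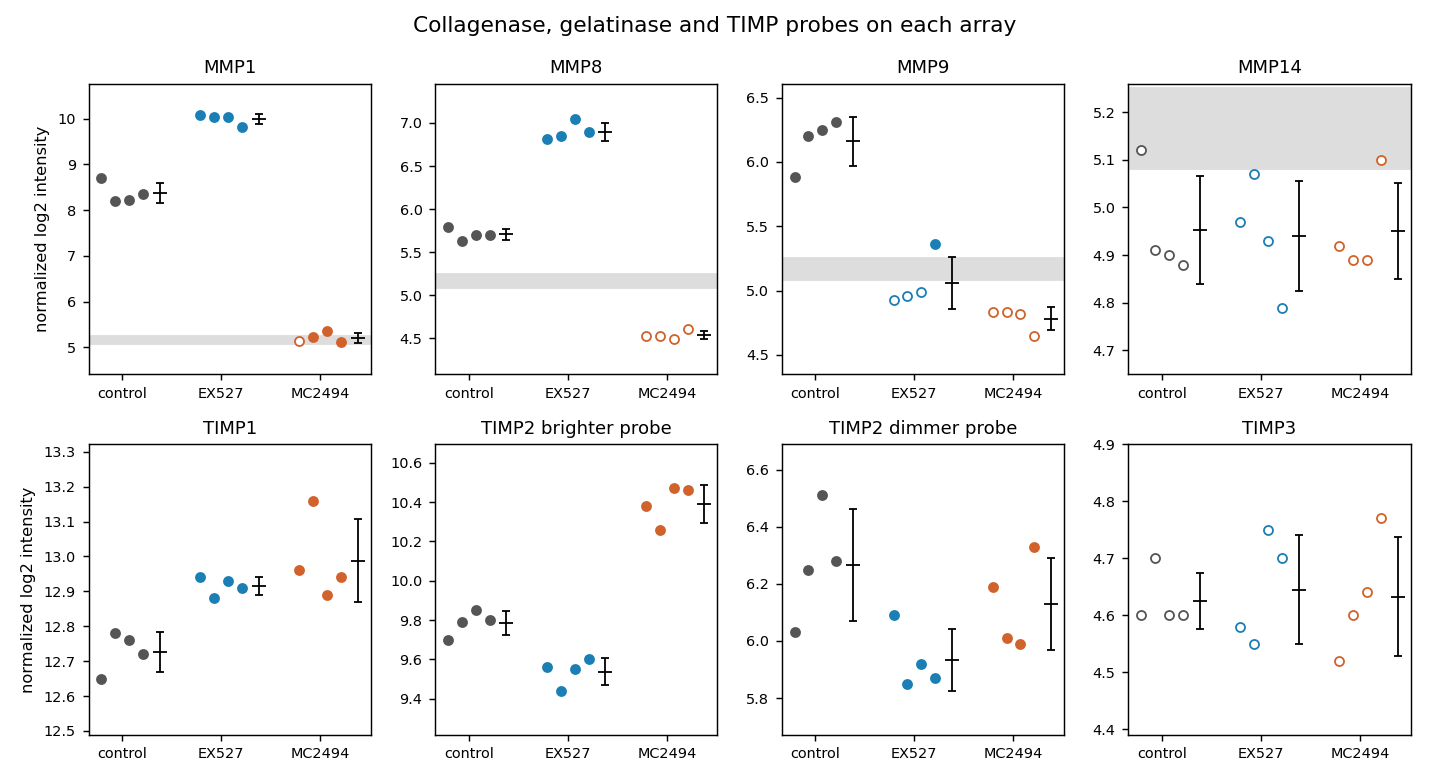
Normalized log2 intensity of each of the 8 probes on each array, with the black mark at the group mean ± SD (n = 4 arrays). Filled points are detected arrays, hollow points are not, and the grey band, where it falls within the panel, spans the lowest detected signal over the 12 arrays. The panels have separate vertical scales, and MMP1 and MMP8 run from EX527 at the top through control to MC2494 at the bottom, while MMP9 is highest in control.

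Among the inhibitors, TIMP1, a secreted glycoprotein that also binds the MMP9 precursor, was bright on every array. Its intensities were 7405, 8027, 7595 and 7382 in control, 7681, 7398, 8474 and 7718 in EX527, and 6671, 8421, 7098 and 6909 in MC2494. As deposited, the 3 groups overlapped. After quantile normalization the means (± SD, n = 4) were 12.73 ± 0.06 in control, 12.91 ± 0.03 in EX527 and 12.99 ± 0.12 in MC2494, and neither compound group overlapped the control.

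The normalized TIMP1 differences from control were 0.26 ± 0.06 on the log2 scale for MC2494 (SE, 95% interval 0.13 to 0.39) and 0.18 ± 0.06 for EX527 (0.05 to 0.32). These directions depended on the scaling. With each array scaled to its median, the MC2494 difference was -0.06 and the EX527 difference 0.00, and with no scaling they were -0.07 and 0.04. Mean intensity as deposited was 0.957 times control in MC2494 and 1.03 times in EX527, while the mean over all probes was lower than control in both groups. The EX527 difference also lost the threshold without control replicate 1 (0.16, limma adjusted p = 0.06). Between the compounds TIMP1 differed by 0.08 (95% interval -0.06 to 0.21).

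TIMP2, which inhibits metalloproteinases and also forms the complex through which MMP14 activates the MMP2 precursor, had a bright and a dim probe. The brighter probe read 948, 994.9, 979.7 and 939.8 in control, 812, 759.3, 884.9 and 844.2 in EX527, and 1160, 1211, 1407 and 1312 in MC2494. These groups did not overlap, with MC2494 highest and EX527 lowest. The order is the reverse of that of MMP1 and MMP8.

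The brighter TIMP2 probe differed from control by 0.61 ± 0.06 on the log2 scale under MC2494 (SE, 95% interval 0.48 to 0.75), which is 1.53-fold, or 1.32-fold in mean intensity as deposited. Under EX527 it differed by -0.25 ± 0.06 (-0.38 to -0.11), which is 1.19-fold lower. Between the compounds it was 1.81-fold higher in MC2494. The dimmer TIMP2 probe did not follow it in MC2494. It read 120 to 134.3 in control, 108.8 to 121.8 in EX527 and 113.3 to 126.1 in MC2494, and these ranges overlapped. Its MC2494 difference was -0.14 ± 0.10 (-0.36 to 0.08), an interval that does not reach that of the brighter probe, and its EX527 difference was -0.34 ± 0.10 (-0.55 to -0.12). The dimmer probe lies near background, and with no background correction these differences were -0.08 and -0.19. Which transcripts each probe reads was not examined, so the MC2494 difference of TIMP2 rests on 1 probe of 2.

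TIMP3, the inhibitor that is held in the matrix and also blocks ADAM17, was detected on no array. Its intensities ran from 60.77 to 70.9 in control, from 60.48 to 70.71 in EX527 and from 55.21 to 65.75 in MC2494, with detection p from 0.22 to 0.90. The groups overlapped, and the unfiltered log2 differences from control were 0.01 for MC2494 (95% interval -0.12 to 0.14) and 0.02 for EX527 (-0.11 to 0.15).

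**Figure D2:**
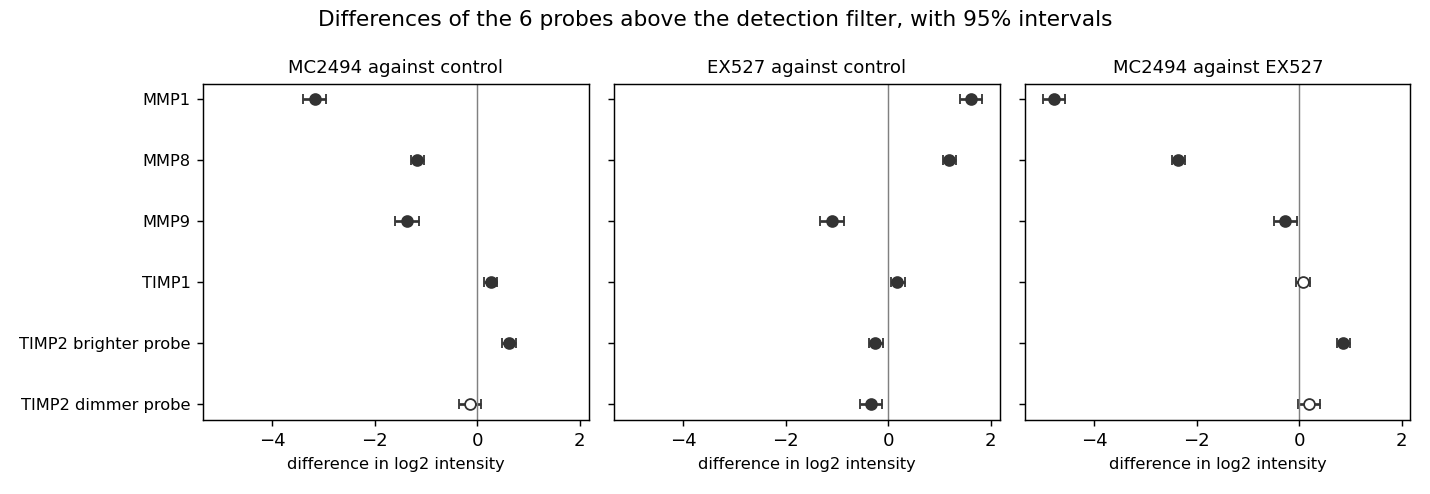
Log2 difference of the 6 probes that passed the detection filter, with 95% intervals from limma, in the 3 comparisons. Filled points were past an adjusted p of 0.05 and hollow points were not. MMP1 and MMP8 lie left of 0 in MC2494 and right of 0 in EX527, the brighter TIMP2 probe the other way round, and MMP9 lies left of 0 in both.

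With a threshold of 0.05 on limma's adjusted p over all 13174 probes, 2 of the 6 probes were higher in MC2494 than in control (TIMP1 and the brighter TIMP2 probe), 3 were lower (MMP1, MMP8, MMP9) and 1 did not pass. In that comparison 70.8% of all probes tested were called, 35.4% higher and 35.3% lower. In EX527 against control, 3 were higher (MMP1, MMP8, TIMP1) and 3 lower (MMP9 and both TIMP2 probes), where 54.3% of all probes were called, 24.3% higher and 30.0% lower. In MC2494 against EX527, 1 was higher (the brighter TIMP2 probe), 3 were lower (MMP1, MMP8, MMP9) and 2 did not pass, where 60.4% were called, 31.4% higher and 29.0% lower. Nothing is read from these counts, since the same contrasts chose the genes. The first and second comparisons share the control arrays. Of the calls between the compounds, 52.0% were higher in MC2494 with quantile normalization, 41.2% with median scaling and 35.2% with no scaling.

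**Figure D3:**
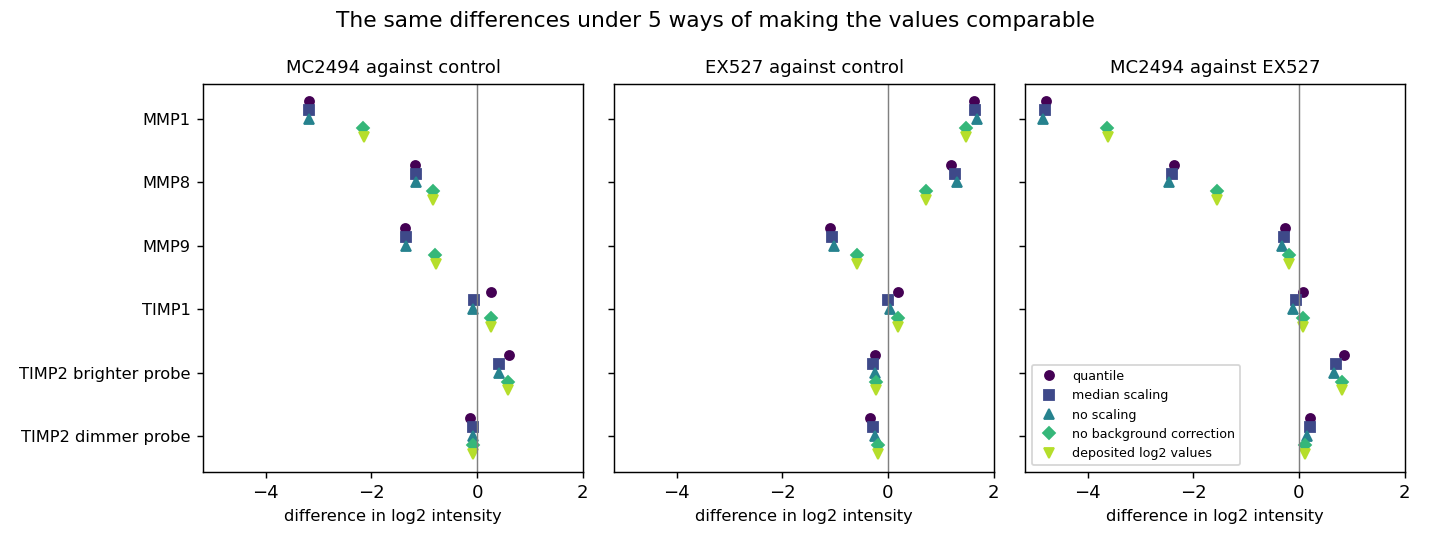
Log2 differences of the same 6 probes under quantile normalization, median scaling, no scaling, no background correction and the authors' deposited log2 values. The MMP1, MMP8 and MMP9 points are smaller without background correction but stay on their side of 0. The TIMP1 points change side or fall near 0 with the scaling. The last pair of settings gives nearly the same values.

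In the authors' deposited table of log2 values, MMP1 differed from control by -2.14 in MC2494 and by 1.48 in EX527. There MMP8 differed by -0.83 and 0.72, and MMP9 by -0.78 and -0.59. Every one of these lies on the same side of 0 as the value from the corrected intensities and is smaller. They are nearly the values found with no background correction, -2.15 and 1.48 for MMP1, so they are not a separate check of that setting.

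MMP1 and MMP8 lie in a run of 9 consecutive protein-coding metalloproteinase genes on chromosome 11, in the RefSeq order MMP7, MMP20, MMP27, MMP8, MMP10, MMP1, MMP3, MMP12 and MMP13. All 9 had a probe, and 3 of them, MMP8, MMP1 and MMP3, passed the detection filter. MMP27 was detected on 1 array and MMP7, MMP20, MMP10, MMP12 and MMP13 on none. MMP3, the stromelysin that cleaves proteoglycans and can activate collagenase precursors, read 138 to 158 in control, 126 to 136 in EX527 and 70.1 to 85.3 in MC2494. Like MMP1 and MMP8 it was lowest in MC2494, at a log2 difference of -1.58 ± 0.08 from control (SE, limma adjusted p = 3.9e-10). It was detected on 2 of the MC2494 arrays and 2.73-fold lower with the other 2 at the lowest detected signal. Unlike them it was below control in EX527 too, at -0.36 ± 0.08 (adjusted p = 0.0015).

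Over the whole family, 23 MMP genes had 24 named probes, and 7 genes had a probe that passed the filter. Of the 18 other MMP genes listed for comparison, MMP2, MMP3, MMP15 and MMP23B were measured. MMP3 was lower and MMP23B higher in MC2494 (0.83 ± 0.13 against control, adjusted p = 6.5e-05, detected on 2 of 4 control arrays), while MMP2, gelatinase A, at 0.00 ± 0.12 and MMP15 at -0.24 ± 0.14 did not pass. In EX527 MMP3 was lower and the other 3 did not pass. Of the 20 probes of MMP genes other than the members 4 passed the filter, and the rest read between 50.5 and 90.5 on all arrays, 14 of them detected on none.

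**Figure D4:**
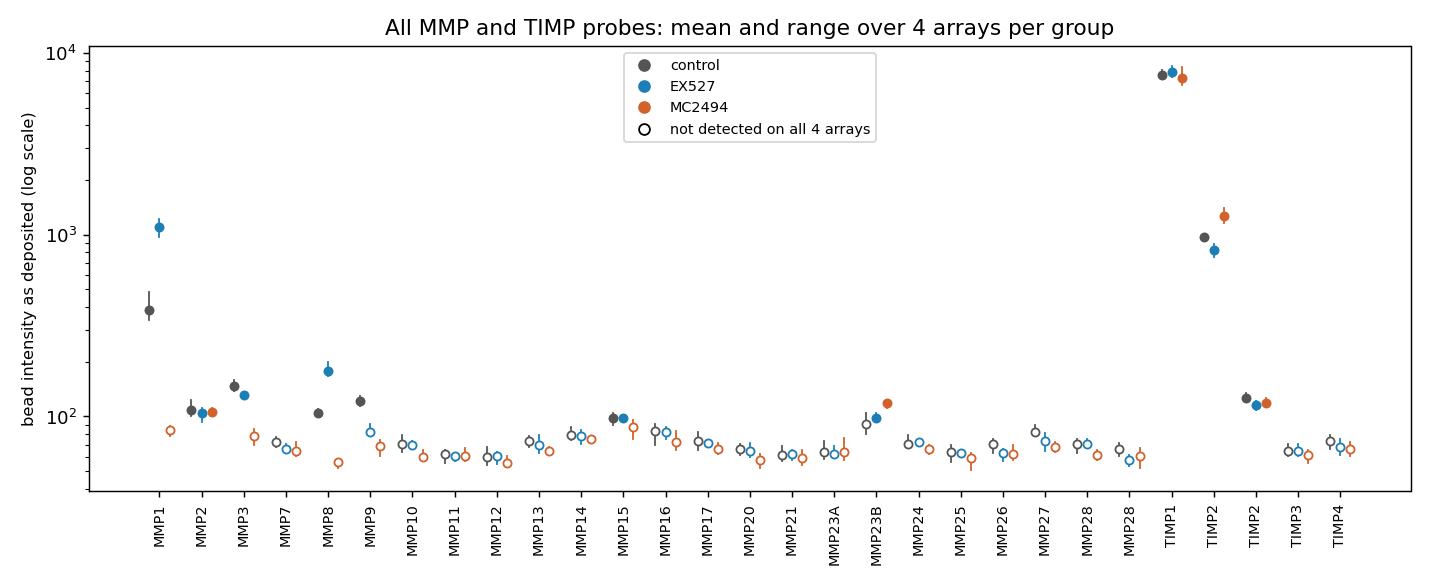
Deposited bead intensity, on a log axis, of every named MMP and TIMP probe, with the mean as a point and the range over 4 arrays as a line, for control, EX527 and MC2494. Filled points were detected on all 4 arrays of the group. Brightness differs between probes for reasons other than abundance, so only the groups within a probe compare, and most MMP probes lie at one low level in all 3 groups.

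The kept named probes of other genes whose levels ran most like each member over the 12 arrays were ranked by Pearson r, for the members whose group means spanned at least 1 on the log2 scale. All pairs share the same arrays and the same 3 groups, so r mostly describes the order and spacing of the group means. For MMP1 these were 2 probes of CD36, a scavenger receptor of macrophages (r = 0.998 and 0.996), and SKA3, a kinetochore component (0.996). CD36 averaged 9.94 in control, 10.64 in EX527 and 8.47 in MC2494 on the log2 scale. For MMP8 they were PARPBP, a regulator of recombination (0.996), the lysosomal fucosidase gene FUCA1 (0.996; 11.69, 12.85 and 10.70 in the same order) and the chromatin ATPase gene ATAD2 (0.995). For MMP9 they were HYAL3, of the hyaluronidase family (0.987; 9.06, 8.31 and 8.16), the complex I subunit gene NDUFA9 (0.983) and the forkhead factor gene FOXD2 (0.982). Many probes ran this way: r was above 0.95 for 154 probes with MMP1, 117 with MMP8 and 123 with MMP9, of 11958 compared. MMP8 was detected on 8 of the 12 arrays and MMP9 on 5, so r for them rests in part on undetected values.

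The other inhibitors listed were TIMP4, RECK, A2M, TFPI2 and CST3, of which RECK and CST3 were measured. RECK, a membrane-anchored inhibitor of several metalloproteinases, was higher in MC2494 than in control by 0.50 ± 0.12 on the log2 scale (SE, limma adjusted p = 0.0019). In EX527 RECK differed by 0.25 ± 0.12 without passing, but with no scaling it passed as higher there. CST3 encodes cystatin C, which inhibits cysteine proteases and not metalloproteinases. It was higher in MC2494 by 0.55 and in EX527 by 0.27, and between the compounds by 0.28, but with no scaling these were 0.21, 0.15 and 0.06 and none passed. Over these 2 genes the median differences from control were 0.53 and 0.26, beside 0.01 and -0.04 over all genes, and with no scaling RECK was at 0.47 in MC2494 beside the 0.21 of CST3.

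Of 14 genes listed for the activation of metalloproteinase precursors through plasmin or proprotein convertases, inhibitors of that step included, 5 were measured. In MC2494 4 were lower than in control and PCSK7, at -0.12, did not pass, where 35.3% of all probes were called lower. The median was -0.49 beside 0.01 over all genes. PLAU, the urokinase gene, differed by -0.64 ± 0.06 (limma adjusted p = 2.8e-07), SERPINE2, which encodes a protease nexin that inhibits urokinase, by -0.70 ± 0.06 (5.5e-08), and FURIN, the convertase that cleaves the MMP14 propeptide, by -0.49 ± 0.08 (6.9e-05). In EX527 2 of the 5 were lower than in control, where 30.0% of all probes were, FURIN by -0.63 ± 0.08 and PLAUR, the urokinase receptor gene, by -0.55 ± 0.06, while PLAU at 0.01, SERPINE2 at -0.11 and PCSK7 at 0.02 did not pass. PLAUR in MC2494 was at -0.43 ± 0.06 on this brightest probe. Its other probes were at -0.73 and -0.68 in MC2494 and at -0.49 and -0.51 in EX527, so the probes differ on which compound was lower. The members that were lower include both the protease PLAU and its inhibitor SERPINE2.

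Of 15 ADAM and ADAMTS genes, 6 were measured, with 2 higher and 1 lower in MC2494 than in control and 2 higher in EX527. Of all probes, 35.4% were called higher and 35.3% lower in MC2494, and 24.3% higher in EX527. ADAM17, the sheddase of TNF that TIMP3 inhibits, was higher in both, by 0.91 ± 0.09 in MC2494 (limma adjusted p = 2.9e-07) and by 0.45 ± 0.09 in EX527 (0.00052). ADAMTSL4, a related matrix protein without a catalytic domain, was higher in MC2494 by 1.22 ± 0.10. ADAM15 was at -0.42 there on the brightest probe, with -0.80 and -0.78 on its others. ADAM9 was higher in EX527 by 0.72 ± 0.08 and differed by 0.03 in MC2494.

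Among 13 binding partners and inducers of MMPs and TIMPs, 9 were measured. In MC2494 4 were higher than in control and 3 lower, and with median scaling 3 higher and 5 lower. In EX527 1 was higher and 3 lower, and with median scaling 1 and 5. Of all probes, 35.4% were called higher and 35.3% lower in MC2494, and 24.3% and 30.0% in EX527. ITGAM, the integrin subunit to which the MMP9 precursor can bind on leukocytes, was higher in MC2494 by 0.69 ± 0.09 (limma adjusted p = 5e-06) and lower in EX527, at -0.86 ± 0.09 (1.9e-06). The proteoglycan core protein genes SRGN, whose product binds the MMP9 precursor, and PRG2 differed in MC2494 by -0.58 ± 0.07 and 0.55 ± 0.10. CD44, a docking site for MMP9 at the cell surface, was at -0.28 in EX527 on the brightest probe, with 0.08 and -0.51 on its others. ITGB1 was higher by 0.55 ± 0.07 in EX527 and by 0.55 ± 0.07 in MC2494, with 0.00 between them. BSG, the inducer of MMP expression also called EMMPRIN, was at -0.22 ± 0.07 in both.

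Of 25 matrix substrate genes, 11 were measured, and the fibrillar collagens COL1A1, COL1A2 and COL3A1, the substrates of MMP1 and MMP8, were detected on no array. In MC2494 4 were higher and 2 lower than in control, where 35.4% and 35.3% of all probes were. In EX527 1 was higher and 2 lower, where 24.3% and 30.0% of all probes were. With no scaling the MC2494 counts were 2 higher and 3 lower. The higher gene in EX527 was COL9A2, at 0.23 ± 0.06 there and 0.49 ± 0.06 in MC2494. COL18A1, whose product gives rise to endostatin, was detected on all 4 MC2494 arrays, 1 control array and no EX527 array. It passed the filter only through the MC2494 group, in which it was high. On the normalized scale MC2494 was at least 1.11-fold higher than EX527, a bound that does not cover the treatment of background. COL22A1 was lower in both, at -2.68 ± 0.10 in MC2494 (detected on 1 of 4 arrays) and -2.43 ± 0.10 in EX527 (3 of 4), or 5.91-fold and 5.26-fold with undetected arrays set as for MMP9. The chains of basement membrane collagen, which MMP9 digests, went separate ways in MC2494. COL4A2 was at -1.32 ± 0.07 there (limma adjusted p = 1.5e-09) and COL4A1 at 0.65 ± 0.10 (4.2e-05), and in EX527 they were at -1.0 ± 0.07 and, without passing, 0.09 ± 0.10.

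Of 26 transcription factor genes known to act on MMP promoters, 25 were measured. In MC2494 9 were higher and 10 lower than in control, where 35.4% and 35.3% of all probes were, and with median scaling 7 and 11. In EX527 6 were higher and 10 lower, where 24.3% and 30.0% of all probes were. Between the compounds 11 were higher and 7 lower in MC2494, where 31.4% and 29.0% of all probes were. With median scaling that balance turned to 6 and 7. Within the AP-1 family the members moved in both directions in MC2494: FOSB differed from control by -1.45 ± 0.08 (limma adjusted p = 1.5e-09) and ATF3, a stress-induced repressor and activator, by 1.34 ± 0.05 (3.9e-11). In EX527 these were at -0.89 ± 0.08 and 0.76 ± 0.05, and JUNB was at -0.74 ± 0.08 there and -0.76 ± 0.08 in MC2494. The ETS factor ETV4 was at -2.18 ± 0.10 in MC2494 (2e-10), with -2.33 on its other probe. In EX527 it was lower than control too, at -0.65 ± 0.10, with -0.76 on its other probe. Between the compounds EGR1, an immediate early factor, was lower in MC2494, at -1.50 ± 0.11, as was the ETS factor ETV5, at -0.82 ± 0.06. Against control EGR1 was at -1.08 ± 0.11 in MC2494 and 0.42 ± 0.11 in EX527, and ETV5 at -0.82 ± 0.06 and, without passing, 0.00 ± 0.06.

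**Figure D5:**
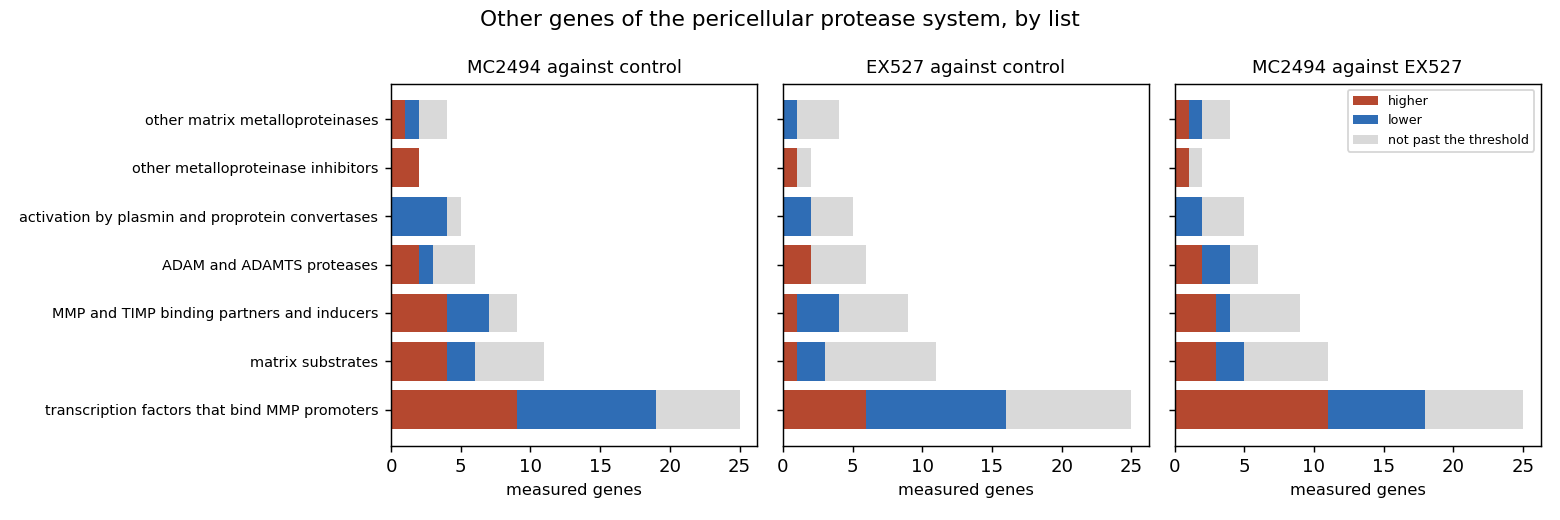
Number of measured genes in each of 7 lists of related genes that were higher, lower or not past an adjusted p of 0.05 in the 3 comparisons, with quantile normalization. The list of activating genes shows 4, 2 and 2 lower members and no higher one, while the transcription factor list is divided in each. Of all probes tested, 70.8%, 54.3% and 60.4% were called in the same 3 comparisons.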

How the data were processed

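Total RNA (3000 ng per sample, per the labels) was turned into biotin-labelled cRNA and hybridised to Illumina bead arrays. The deposited table gives each probe's mean bead intensity, not background-subtracted and not normalized as its values show, and beside it, per the file headers, a p-value of detection, in steps of 1 in 664. A second deposited table holds log2 values quantile normalized by the authors, used as an alternative. The submitters' processing notes name limma, and the background correction behind the log2 table is not given in the sources used here.

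Intensities were corrected with the neqc function (limma 3.58.1, R 4.3.3; background from detection p-values, offset 16, quantile normalization, log2), which makes each difference relative to the other probes. Probes with a detection p under 0.05 on at least 4 of 12 arrays were kept. The model (lmFit, eBayes) had 1 mean for each group over the 12 arrays, with Benjamini-Hochberg adjustment over 13174 probes. Symbols came from the platform annotation, in which 21834 probes had 1 symbol, 0 several and 2692 none, and the promoters from RefSeq on GRCh38.p14. For a listed gene the brightest kept probe was used.

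Members, lists and tests were chosen with earlier results of these data known. Named were all members, the 3 probes most like each member spanning 1 on the log2 scale, and from each list the 3 largest differences past the threshold per comparison. MMP2, MMP15, BSG, PCSK7 and the values of a named gene in a further comparison fall outside that rule and were added after their values were seen. Alternatives varied the offset, threshold, scaling, background correction, probe choice, detection filter, array weights, variance trend, arrays fitted and replicate block, used the deposited log2 values, and left out each array. The fit was tested on simulated data. The number of arrays limits the precision.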

Additional observations from a re-analysis of the deposited data

Results flagged for a closer look

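In 8 of 108 groups of 4 arrays examined, 1 array stood far from the other 3 by Dixon's criterion at the 95% level, and chance alone marks about 1 group in 20. Values are normalized log2 intensities.

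MMP9 was at 5.36 on EX527 replicate 4, the only EX527 array on which it was detected, while the other 3 lay at 4.93 to 4.99. It was at 4.65 on MC2494 replicate 4, against 4.82 to 4.83 on the others, none of them detected. MMP14 was at 5.12 on control replicate 1, against 4.88 to 4.91, and at 5.10 on MC2494 replicate 4, against 4.89 to 4.92. TIMP3 was at 4.70 on control replicate 2, with 4.6 on the other 3. MMP14 and TIMP3 were detected on none of these arrays, so these gaps lie within background signal.

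MMP23B was at 5.83 on control replicate 4, against 5.10 to 5.18 on the other control arrays, and was detected on 2 of the 4. ADAMTSL4 was at 5.95 on control replicate 3, against 6.25 to 6.30. COL4A1 was at 8.10 on MC2494 replicate 3, against 7.65 to 7.71.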

How the results depend on the processing

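Of 444 combinations of a member's difference with an alternative, over 25 alternatives, 426 kept their direction and their side of the threshold. A further 13 lost the threshold, and 5 changed direction or fell to 0.00. All 5 were in TIMP1: -0.06 (MC2494 against control), 0.00 (EX527 against control) and -0.06 (MC2494 against EX527) with median scaling, and -0.07 and -0.11 for the first and last with no scaling. The 0.00 is in effect a lost call. MMP1 and MMP8, and the brighter TIMP2 probe, kept every direction and call. The MMP9 difference between the compounds lost its call in 9 alternatives, with -0.32 to -0.17 when an array was left out, the TIMP1 difference in EX527 lost it with no scaling (0.04), without control replicate 1 (0.16) and at a threshold of 0.01, and the dimmer TIMP2 probe in EX527 at that threshold. The causes were not tested. Between 5 and 5, 5 and 6, and 3 and 4 of the 6 probes were called with each array left out, for MC2494 against control, EX527 against control and MC2494 against EX527. Over all probes those ranges were 8943 to 9299, 6631 to 7252 and 7548 to 7970. Replicate numbers are shared between groups in the labels. Same-numbered arrays deviated together weakly at most, with r from -0.04 to 0.18 in 12 pairs, 4 of them over 0.1. Arrays of other numbers had r from -0.21 to 0.25 between groups. Of the 12 arrays, 2 matched best with their own number. A fit with replicate block called 9407, 7285 and 8029 probes, against 9326, 7160 and 7957 without it, and 5, 6 and 4 of the members. MMP9 could not be fitted with a detection p under 0.01, nor the dimmer TIMP2 probe with 1 probe per gene. MMP8, MMP9 and the dimmer TIMP2 probe lie near background, as does MMP1 in MC2494. The size of their differences, bounds included, therefore depends on the treatment of background. Differences in MMP14 and TIMP3 could not be seen at this signal.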
